A study of Caenorhabditis elegans with 2 samples.

Results

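The heat shock and chaperone genes of Caenorhabditis elegans described here are the 59 nuclear protein-coding genes whose names start with dnj-, hsp- or cct-, out of 19973 nuclear protein-coding genes in the annotation. They comprise 29 J-domain genes (dnj-), 22 heat shock protein genes (hsp-) and 8 chaperonin genes (cct-). The hsp- genes were further divided into 13 small heat shock proteins, 6 members of the HSP70 class, 2 of the HSP90 class and the mitochondrial chaperonin gene hsp-60. The members were chosen by name and not by their binding. The promoter window of a gene covered the 1000 bp before its annotated 5′ end and the first 200 bp after it.

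The sites of tagged DMD-8 on chromatin were mapped by ChIP-seq, sequencing of immunoprecipitated DNA, in 1 group of 2 biological replicates, each of whole L4 larvae aged 48.5 hours. The worms, strain OP775, carried the integrated transgene wgIs775, in which dmd-8 is fused to a TY1 EGFP 3xFLAG tag and comes with unc-119(+), in an unc-119 (tm4063) background, and the protein was precipitated with an antibody against GFP. What was precipitated is thus the tagged product of an integrated transgene, and the chromatin came from all cell types of the larva at once, so that binding in fewer cells and weaker binding in each cell cannot be told apart. No untreated group and no control list were analysed here, so the comparisons are between genes and carry counting intervals and no p-values.

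Chaperones help other proteins to fold, to refold after damage and to assemble. HSP70 proteins hold unfolded segments in a cycle of ATP hydrolysis, J-domain proteins deliver substrates and trigger that hydrolysis, and exchange factors reset the cycle. Chaperonins are barrel-shaped complexes in which whole proteins fold, in the cytosol as the CCT (TRiC) complex and in mitochondria as the HSP60 complex, while small heat shock proteins hold damaged proteins and keep them from clumping. Many of these genes are induced on heat by the transcription factor HSF-1, which binds heat shock elements, repeated units of the letters GAA in alternating orientation. DMD-8 itself is a transcription factor with a DM domain, a DNA-binding fold best known from sexual development.

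For 5 of the chaperone genes with a peak in the authors' strictest combined list, dnj-13, hsp-60, dnj-19, hsp-4 and hsp-1, the 100 bp around a summit (the position of highest signal in a peak) are shown, because the counts below rest on such summits. They are written 5′ to 3′ on the strand of the gene, from the RefSeq genome of assembly WBcel235 (ce11). Capitals mark matches to any of 6 patterns searched on both strands, namely TTCNNGAA (a pair of heat shock units), 3 heat shock units in a row (the same with NNTTC after it or GAANN before it), the GC-rich CCGCCC, the repeat GAGAGA, the DM site ACAATGT and TGACGTGG, known from the unfolded protein response of mammals.
dnj-13, chrII:11545430-11545529 (+ strand): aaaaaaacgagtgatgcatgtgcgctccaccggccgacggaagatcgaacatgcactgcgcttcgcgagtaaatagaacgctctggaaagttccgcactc
hsp-60, chrIII:1619058-1619157 (+ strand): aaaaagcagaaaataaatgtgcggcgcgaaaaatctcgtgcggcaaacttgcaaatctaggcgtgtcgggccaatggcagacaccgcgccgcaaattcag
dnj-19, chrV:5505202-5505301 (- strand): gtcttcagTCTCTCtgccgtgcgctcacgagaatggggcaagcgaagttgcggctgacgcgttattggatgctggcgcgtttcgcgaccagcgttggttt
hsp-4, chrII:7353178-7353277 (- strand): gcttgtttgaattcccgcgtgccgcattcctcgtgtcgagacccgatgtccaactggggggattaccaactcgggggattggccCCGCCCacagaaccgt
hsp-1, chrIV:17278449-17278548 (+ strand): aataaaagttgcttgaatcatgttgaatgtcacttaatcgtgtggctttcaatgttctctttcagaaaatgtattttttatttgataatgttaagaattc
These 5 windows held 2 matches to the patterns above, a GAGAGA near the dnj-19 summit, which reads TCTCTC on the strand shown, and a CCGCCC near the hsp-4 summit. On the + strand their first bases lay 36 bp to the right of the dnj-19 summit and 40 bp to the left of the hsp-4 summit. The GC content was 53% for dnj-13, 51% for hsp-60, 59% for dnj-19, 61% for hsp-4 and 27% for the hsp-1 summit shown, the lowest of the 5. A second hsp-1 summit, not shown, had 49%.

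In the authors' conservative list, 6 of the 59 promoters held a summit (10.2%, exact 95% interval 3.82% to 20.8%), against 509 of all 19973 protein-coding genes (2.55%, 2.33% to 2.78%). The conservative list holds 1537 peaks from the combined replicates with an irreproducible discovery rate (IDR, a measure of how badly peak ranks repeat between replicates) of 0.01 or less. The bound promoters were those of the J-domain genes dnj-13, dnj-28 and dnj-19 and of the heat shock protein genes hsp-60, hsp-4 and hsp-1. Over the 19914 other genes the share was 2.53%, below the interval of the members. This depended on the window. With 2000 bp upstream the members stayed at 6 of 59 while the share of all genes was 4.12%, inside the interval, and with each summit given to the nearest 5′ end only, 4 of 59 were bound (6.78%, 1.88% to 16.5%), against 2.01%, again inside it. The bound genes were spread over 5 chromosomes, with 2 on II, 1 each on I, III, IV and V, and none among the 5 members on X. Intervals cover counting of genes only, and neighbouring genes that share a summit are not independent.

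The families differed by less than their counting error. Of the J-domain genes 3 of 29 were bound (10.3%, 2.19% to 27.4%), of the heat shock protein genes 3 of 22 (13.6%, 2.91% to 34.9%), and of the chaperonin genes 0 of 8, which allows a share of up to 36.9%. Within the heat shock proteins, 2 of 6 HSP70 genes were bound (33.3%, 4.33% to 77.7%), while none of the 13 small heat shock protein genes was, which allows up to 24.7%, and neither of the 2 HSP90 genes. All of these intervals overlapped, and differences between families were not tested. With a window that reached 500 bp upstream the heat shock protein count was 1, that of hsp-1, while the J-domain count remained 3, against 1.62% of all genes.

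**Figure D1:**
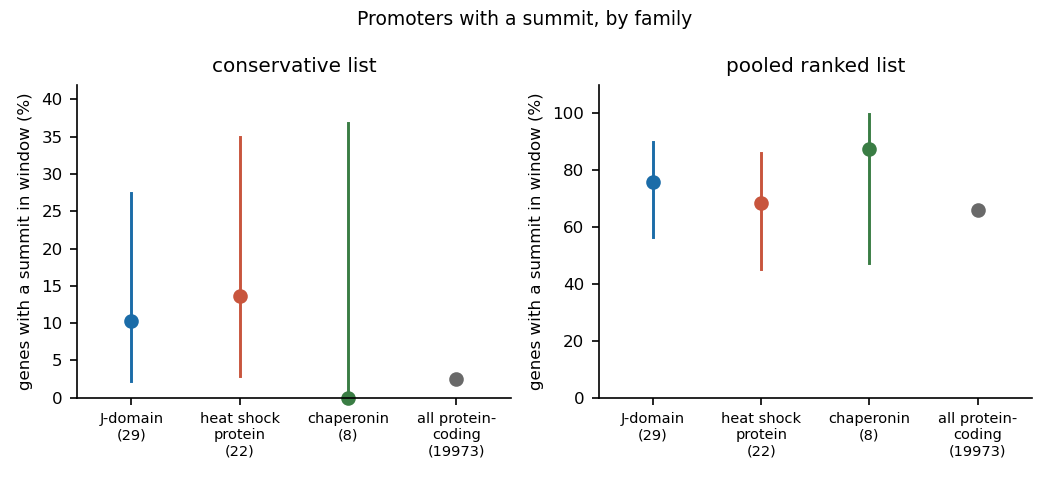
Share of genes with a summit in the promoter window (vertical axis, percent) in the conservative list (left) and in the longer pooled ranked list (right), for each chaperone family and for all protein-coding genes, with the number of genes in brackets. Points are shares and lines are exact 95% intervals, and the J-domain and heat shock protein families sit at 10.3% and 13.6% in the conservative list, against 2.55% of all genes.

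The lists of the replicates overlapped in part at the members. In the IDR thresholded list of replicate 1, which holds 629 peaks, 3 members were bound (5.08%, 1.06% to 14.1%), against 0.941% of all genes, and these were dnj-13, dnj-28 and hsp-60. In that of replicate 2, with 545 peaks, 3 members were bound, against 0.821% of all genes, and these were dnj-13, hsp-60 and dnj-19. Only dnj-13 and hsp-60 were therefore in both. The authors' optimal list of 1556 peaks gave 6 members against 2.52% of all genes, with dnj-24 among them and hsp-1 not. The total of reads behind each list is unknown, since the files hold peaks and not reads.

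Among the J-domain genes, dnj-13 had the highest signal of any member. It encodes a J-domain cochaperone of the class of mammalian DNAJB1, which works with HSP70 and HSP110 in the cytosol. Its peak, chrII:11545340-11545619, had a signal of 147.6 in the pooled list, 83.25 in replicate 1 and 57.86 in replicate 2, and its summit lay 221 bp upstream of the 5′ end of the gene. Signal is the authors' value per peak, is not scaled between lists and ranks peaks within a list only. The IDR was 0.000562 and the peak ranked 252 of the 1537 conservative peaks. The summit lay in an intron of dhgd-1, which runs on the opposite strand, and inside the noncoding RNA gene F54D5.22, and the promoter window of F54D5.9 held it too (652 bp upstream).

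The peak of dnj-28, chrI:2996242-2996521, was nearly as strong in the pooled list but had an overlapping peak in the ranked list of replicate 1 only. It had a signal of 141.6 in the pooled list and 84.45 in replicate 1, while the ranked list of replicate 2 held no peak that overlapped it. For this peak the pooled list itself records the signals of 2 matched peaks, 84.45 and 53.26. Which replicate each belongs to is not stated. At the other member peaks of the conservative and optimal lists, the first value equals replicate 1's signal and the second replicate 2's. The lack of an overlapping peak in the replicate 2 list thus does not show that this replicate had no signal there. Its summit lay 106 bp upstream of dnj-28 and 468 bp upstream of supr-1, outside any annotated gene, with an IDR of 0.000613. In this peak 25.3% of the 32-base words also occur elsewhere in the genome, and in the whole promoter window 19.9%. Whether that touches the lack of an overlapping peak in the replicate 2 list was not tested.

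For dnj-19, which encodes a J-domain cochaperone of the class of mammalian DNAJA proteins, the peak chrV:5505112-5505391 had a signal of 102.6 in the pooled list, 46.48 in replicate 1 and 57.92 in replicate 2. The summit lay 395 bp upstream of dnj-19 but 1 bp from the 5′ end of nhr-47, a nuclear hormone receptor gene, and within the noncoding RNA gene C24G6.10. Of the 3 bound J-domain promoters it was thus the one whose summit was nearest to another gene's start. The optimal list added dnj-24, with a summit 130 bp downstream of the 5′ end in its own 5′ UTR. That peak had a signal of 84.41 in the pooled list, 29.2 in replicate 1 and 53.54 in replicate 2, and its IDR of 0.0169 lay above the limit of the conservative list.

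Among the heat shock proteins the mitochondrial chaperonin gene hsp-60 had the strongest peak. The peak, chrIII:1618968-1619247, had a signal of 120.1 in the pooled list, 59.31 in replicate 1 and 65.64 in replicate 2, an IDR of 0.000734 and rank 405. The summit lay 634 bp upstream of hsp-60 and outside annotated genes, and 179 bp upstream of Y22D7AL.10, whose 5′ end was nearer.

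Both genes for BiP, the HSP70 of the endoplasmic reticulum (ER), had strong peaks. For hsp-4, which is induced when unfolded proteins build up in the ER, the peak chrII:7353088-7353367 had a signal of 93.94 in the pooled list, 50.35 in replicate 1 and 38.21 in replicate 2. Its summit lay 583 bp upstream, in no other gene's window, and it was in neither replicate's own thresholded list. In this peak 16.5% of the 32-base words also occur elsewhere in the genome. For hsp-3, the second BiP gene, the highest summit lay 105 bp upstream, with a signal of 83.11 in the pooled list, 53.88 in replicate 1 and 21.55 in replicate 2. Its pooled signal was above that of hsp-1, but its IDR was 0.0831 and it was not in the conservative list. The ratio of replicate 1 to replicate 2 at this peak, 2.5, was the highest among the member peaks found in both, against a median of 0.907 over those peaks.

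The gene hsp-1, which encodes the constitutive cytosolic HSP70 (HSC70), was the only member with 2 conservative summits in its window. The first peak, chrIV:17278359-17278638, had its summit 460 bp upstream, in the noncoding RNA gene F26D10.23, with a signal of 81.78 in the pooled list, 48.3 in replicate 1 and 41.59 in replicate 2. The second, chrIV:17278956-17279235, had its summit 137 bp downstream of the 5′ end, in the coding sequence of hsp-1 itself, with a signal of 78.72 in the pooled list, 49.87 in replicate 1 and 30.72 in replicate 2. Both lay below the median signal of the conservative list, 90.61, and the IDR was 0.00219 for the first and 0.00986 for the second. Neither was in the optimal list or in a replicate's own thresholded list. No tRNA, snoRNA or snRNA gene lay within 200 bp of any of these member summits.

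**Figure D2:**
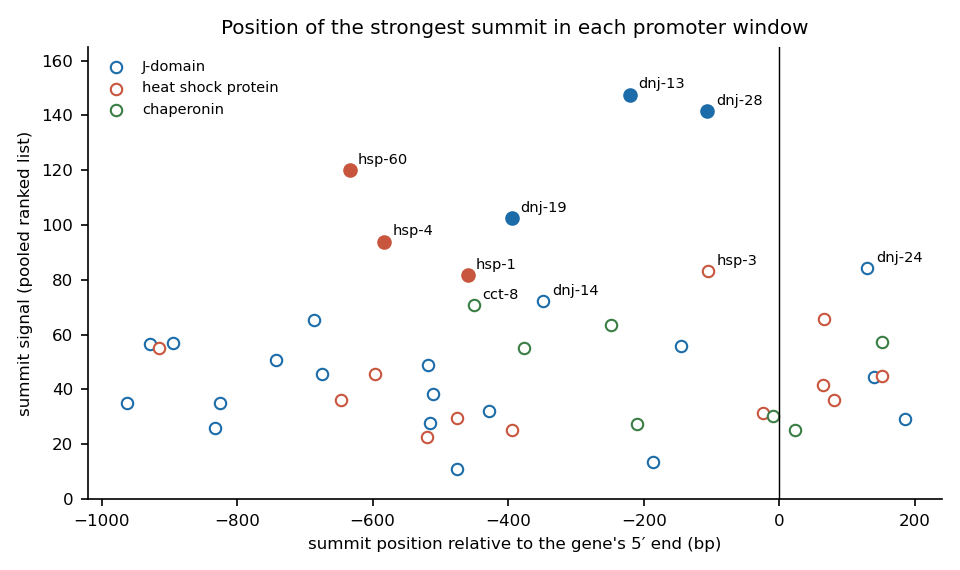
Position of the summit of highest signal in each member's promoter window (horizontal axis, bp from the 5′ end, negative upstream) against its signal in the pooled ranked list (vertical axis), coloured by family. Filled points are members in the conservative list, and their summits shown here lie between 634 bp and 106 bp upstream of the 5′ end.

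The pooled ranked list, which holds 95232 peaks before the IDR limit is applied, gives a value for most genes. In it, 44 of the 59 members had a summit in their window (74.6%, 61.6% to 85.0%), against 65.8% of all genes, a share near that background. The same held in replicate 2 (38 members, 64.4%, against 59.2% of all genes). In replicate 1 it was 47 members (79.7%, 67.2% to 89.0%), against 62.5%. The height of the signal was described as well, by a measure that is not separate from the presence of a summit. Each gene was given the percentile of its highest summit among all genes, with genes lacking a summit placed lowest. The median percentile over all 59 members was 68.1 in the pooled list, 70.6 in replicate 1 and 73.2 in replicate 2, against 50 for all genes in each. The pooled value depended on the window. With 500 bp upstream it was 59 for all members and 50.6 for J-domain genes, the latter close to 50. With 2000 bp upstream these values were 73.9 and 75.9. Of the members 19 lay in the highest 10% of all genes in the pooled list (32.2%), and 11 in each replicate's list (18.6%).

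By family, the median percentile in the pooled ranked list was 68.1 for J-domain genes, 66.1 for heat shock protein genes and 75.4 for chaperonin genes. Within the heat shock proteins it was 87.9 for the HSP70 class and 17.1, the value of a gene with no summit, for the small heat shock proteins, of which 6 of 13 had a summit. Those without one included hsp-16.1, hsp-16.11, hsp-16.48 and hsp-16.49. Words of 32 bases that also occur elsewhere in the genome made up 93.2% to 100% of their windows. How far these copies lower the median of the small heat shock proteins was not tested. The small heat shock protein value varied by list, at 44 in replicate 1, where 8 of 13 had a summit, 20.4 in replicate 2 and 39.3 in the other combined ranked list. All 6 HSP70 genes had one. The lowest of them were hsp-6, the mitochondrial HSP70, with a signal of 31.6, and hsp-110, the cytosolic exchange factor, with 36.15. Both HSP90 genes had a summit, hsp-75, related to mitochondrial TRAP1, with 55.18 and the cytosolic hsp-90 with 45.08. These values describe the lists and no difference between classes was tested.

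**Figure D3:**
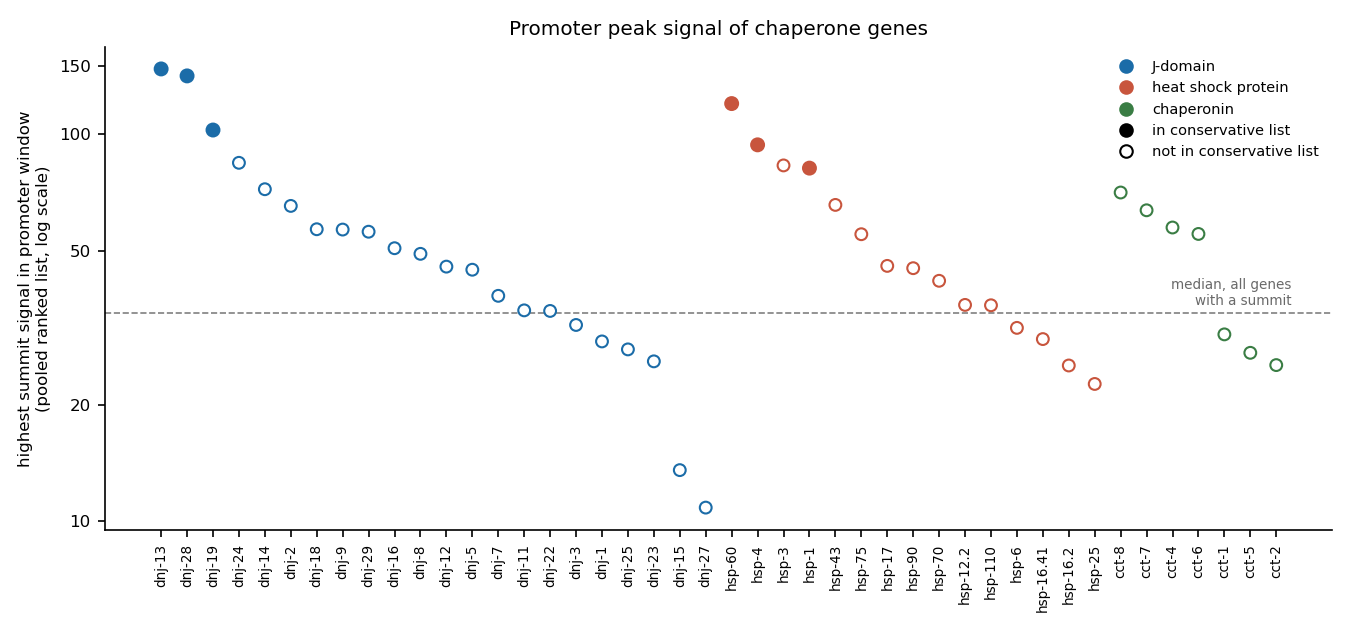
Signal of the highest summit in the promoter window in the pooled ranked list (vertical axis, log scale) for the 44 members that had one, ordered by signal within each family. Filled points are in the conservative list, open points are not, and these members had a median of 45.6, against 34.5 over all genes with a summit (dashed line).

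The CCT complex is built from different subunits that each have a gene of their own, and the signals of the 8 genes ranged widely. In the pooled list cct-8 had a signal of 70.73 (40.84 in replicate 1 and 26.1 in replicate 2), cct-7 63.63 (26.65 and 33.78), cct-4 57.43 (27.91 and 29.74) and cct-6 55.27 (20.36 and 28.09). These 4 were in the highest 10% of all genes in the pooled list, while of the 8 genes only cct-8 was there in replicate 1, and only cct-7 and cct-4 in replicate 2. The signals of cct-1, cct-5 and cct-2 were lower, at 30.4 (14.3 in replicate 1 and 15.81 in replicate 2), 27.24 (11.31 and 13.39) and 25.32 (13.53 and 11.97), all under the median of 34.5 over all genes with a summit, and cct-3 had no summit in the pooled list. The summits of the higher 4 lay 451 bp upstream of cct-8, 248 bp upstream of cct-7, 376 bp upstream of cct-6 and 151 bp downstream of the cct-4 5′ end, in its own coding sequence. None of the 8 passed the IDR limit, with the lowest IDR, 0.0341, at cct-8.

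Several other members had a lower signal and did not pass the IDR limit. The gene dnj-14, for the cysteine string protein of synaptic vesicles, had a signal of 72.13 in the pooled list, 34.9 in replicate 1 and 28.57 in replicate 2, 348 bp upstream. The small heat shock protein gene hsp-43 had 65.7 (33.78 in replicate 1 and 26.44 in replicate 2) at 66 bp downstream, in its own coding sequence. For dnj-2 the signal was 65.31 (36.67 and 23.51), 686 bp upstream in the coding sequence of B0035.3, and the prefoldin gene pfd-4 had the same summit in its window. For dnj-18 it was 56.84 (24.71 and 27.49), for dnj-9 56.73 (25.03 and 27.54) and for dnj-29, related to the ER translocation factor SEC63, 56.01 (28.84 and 21.45). The IDR was 0.0939 at dnj-18, 0.0903 at dnj-9 and 0.125 at dnj-29. The other 13 J-domain genes with a summit ranged from 10.84 at dnj-27, which encodes an ER J protein, to 50.77 at dnj-16. Among them were dnj-12, of the DNAJA class, with 45.5 and dnj-25, the auxilin gene of clathrin uncoating, with 27.8. The other small heat shock protein genes with a summit ranged from 22.63 at hsp-25 to 45.7 at hsp-17. Just outside the IDR limit of 0.01 stood dnj-24 at 0.0169 and dnj-14 at 0.0315, and just inside it stood the second hsp-1 peak.

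The replicates ranked the member peaks in a similar but not identical order. For the strongest pooled summit of the 44 members, 34 peaks had an overlapping peak in both replicates' ranked lists (77.3%, against 60.5% of 13135 over all genes), 6 in replicate 1 only, 2 in replicate 2 only and 2 in neither. These counts describe what each replicate's list held. The pooled list records 2 matched signals at each of the 44 peaks, also at dnj-3 (10.77 and 12.59), which overlapped a peak in neither list. Over those 34, Spearman's rho between the replicates' signals was 0.605, against 0.387 over the 7948 such pairs of all genes. Members with a pooled summit had a higher median signal than all genes with one (45.6 against 34.5). Agreement was not compared at matched signal. Replicate 1 was the higher in 15 and replicate 2 in 19, and the ratio of replicate 1 to replicate 2 had a median of 0.907 and ran from 0.491 to 2.5, against a median of 1.02 over all genes. Genes that share a library are not independent points. Signal is not scaled between lists, so these counts and ratios include any difference in scale between the replicates. For any single gene, a difference within that range is no larger than the spread between these replicates at the 34 peaks.

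**Figure D4:**
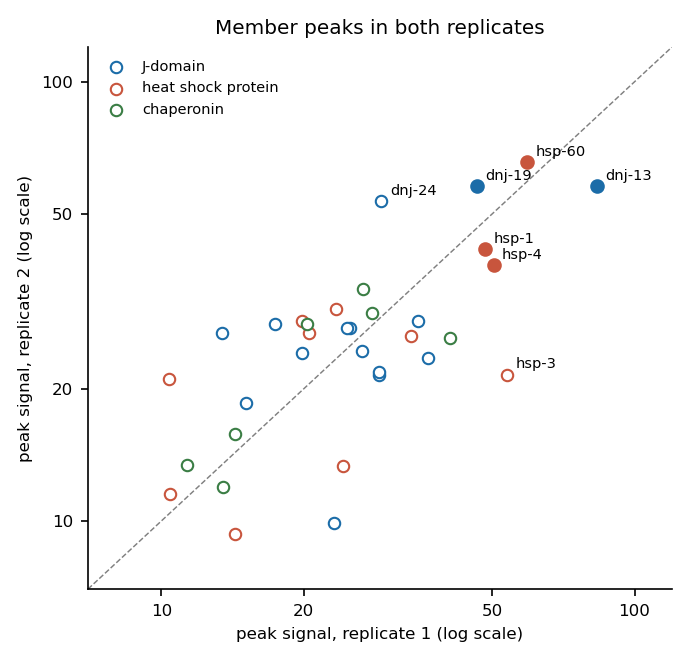
Signal of the peak in replicate 1 (horizontal axis) and replicate 2 (vertical axis), both on log scales, for the 34 members whose strongest pooled peak overlaps a peak in both ranked lists. Filled points are members in the conservative list, and the dashed line marks equal values, though signal is not scaled between the lists. On the replicate 1 side lie dnj-13 and hsp-3, and on the replicate 2 side lies dnj-24.

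No summit in the pooled ranked list was found at 15 members. They were 7 J-domain genes, 7 small heat shock protein genes and cct-3. The J-domain genes were dnj-4, dnj-10 (a mitochondrial J protein), dnj-17, dnj-20 (an ER J protein), dnj-21 (of the mitochondrial import motor), dnj-26 and dnj-30. The small heat shock protein genes were hsp-12.1, hsp-12.3, hsp-12.6, hsp-16.1, hsp-16.11, hsp-16.48 and hsp-16.49. Of the 15, 10 had no summit in either replicate's ranked list, and 5 had one in a single replicate, namely dnj-4 in replicate 2 (29.99) and dnj-21 (19.71), cct-3 (10.04), hsp-12.1 (21.61) and hsp-16.11 (20.83) in replicate 1.

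Repeated sequence was frequent among the members without a summit. Words of 32 bases that also occur elsewhere in the genome made up 96.5% of the window of hsp-16.1, 93.2% of that of hsp-16.11 and 100% of those of hsp-16.48 and hsp-16.49, which form a duplicated cluster on chromosome V. Of the 8 members with more than 10% of such words, 1 had a pooled summit (12.5%), while 43 of the 51 others did (84.3%), against 60% of 2830 and 66.7% of 17143 over all genes. No source used here says how the authors placed reads that match several sites, so values at these near-identical copies are uncertain and their part in the missing peaks was not tested. Without the 8 genes, 5 of 51 members were bound in the conservative list (9.8%). The share of all genes bound under the same limit was not computed. This count therefore does not show whether the difference from all genes remains without repeated windows. The limit is on whole windows, so hsp-4 and hsp-1 stayed in. Repeated words made up 16.5% of the hsp-4 peak and 13.3% of the second hsp-1 peak.

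At the best known heat shock promoter region no peak was found. Between the 5′ ends of hsp-16.2 and hsp-16.41, a divergent pair of small heat shock protein genes widely used as heat shock reporters, lie 220 bp with heat shock elements. These genes were not among the duplicated copies (2.22% and 3.42% repeated words in the 2 windows). The stretch is shown on the + strand, with pattern matches in capitals.
hsp-16.2 and hsp-16.41, chrV:1804958-1805177 (+ strand): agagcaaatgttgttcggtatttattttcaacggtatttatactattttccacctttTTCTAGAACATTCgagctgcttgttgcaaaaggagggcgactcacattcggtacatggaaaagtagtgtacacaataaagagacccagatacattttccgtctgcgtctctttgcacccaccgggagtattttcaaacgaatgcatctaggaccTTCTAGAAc
It held 2 matches to TTCNNGAA, both part of a match to 3 heat shock units, though the right match runs past the end of the stretch. No summit lay in it and no peak overlapped it in any of the 8 lists. The best pooled summits of the pair lay beside it, each inside the coding sequence of the other gene, with 25.26 at hsp-16.2 (percentile 51.7 among all genes) and 29.56 at hsp-16.41 (59). In the replicates' lists the best summits of hsp-16.2 stood at percentile 55.5 in replicate 1 and 82.2 in replicate 2, and those of hsp-16.41 at 75.8 and 82.2.

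Matches to 3 heat shock units were frequent in the windows of the heat shock protein genes, and none lay in the 100 bp at a conservative member summit. At least 1 match to 3 heat shock units was found in 15 of 59 member windows (25.4%), against 7.68% of all windows of 1201 bp, with 12 of 22 at heat shock protein genes (54.5%, 4 of them the duplicated hsp-16 copies), 3 of 29 at J-domain genes (10.3%) and 0 of 8 at chaperonin genes. The hsp-16 genes lie in divergent pairs whose windows share the same matches, so these windows are not independent. The shorter TTCNNGAA, which overlaps the match to 3 units, was in 74.6% of member windows against 57.9%. Of the 15 genes, 11 had a pooled summit, and none of the matches lay within 50 bp of the best one. The distance from the nearest match to that summit ran from 57 bp at hsp-60 to 681 bp at dnj-24, with a median of 277. At the 7 conservative member summits, 0 of the 100-bp windows held TTCNNGAA or 3 units, against 3.06% and 1.04% of all 1537 conservative summits, and 7 windows are too few to tell 0 from shares of that size.

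The other patterns were found in shares of member windows that lay closer to those of all windows, with differences between families. The DM site was in 20.3% of member windows against 20.5% of all, CCGCCC in 18.6% against 19.2%, TGACGTGG in 1.69% against 3.56% and GAGAGA in 64.4% against 50.9%. By family, the DM site was in 4 of 8 chaperonin windows (50%) and 2 of 22 heat shock protein windows (9.09%), CCGCCC in 8 of 22 heat shock protein windows (36.4%) and 0 of 8 chaperonin windows, and GAGAGA in 11 of 13 small heat shock protein windows (84.6%). Among the last were all the hsp-16 windows, which overlap in divergent pairs. None of the 7 summit windows held the DM site, against 0.911% of all conservative summits. After the sequences were seen, GAANNTTC, the same units in the opposite order, was searched as well. It was found at 1 of the 7, that of dnj-13, against 4.29% of all conservative summits. In promoter windows it was found at 42 of 59 members (71.2%), against 57.2% of all genes. The median GC content at the 7 summits was 51%, equal to that of all conservative summits, and over the member windows it was 35.7% against 35.0% over all windows. A match is a description of letters and says nothing about which factor was there, nor does its lack.

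The place of the summits was close to that of other genes. Of the 44 best pooled summits of members, 9 lay in the gene itself (20.5%, against 19.1% over all genes), 15 in another protein-coding gene (34.1% against 28.8%) and 20 outside protein-coding genes (45.5% against 52.1%). The median distance to the 5′ end was 412 bp, against 384 bp over all genes with a summit. Member windows held 1.31 pooled summits on average, against 1.16 over all genes.

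Outside the promoter windows, 4 of 59 members held conservative summits in the body of the gene (6.78%, exact 95% interval 1.88% to 16.5%), against 3.37% of all genes, a share inside that interval. At hsp-110, the exchange factor of HSP70, 2 summits lay in the coding sequence, 691 bp and 1825 bp from the 5′ end, with signals of 59.33 (36.92 in replicate 1 and 48.28 in replicate 2) and 79.66 (35.39 and 60.24). At cct-7 a summit lay 1534 bp into the gene, in the coding sequence, with 78.4 (37.44 and 37.48), and this peak was also in replicate 1's own list. At cct-5 a summit lay in an intron, 5562 bp from the 5′ end, with 79.79 (41.91 and 42.61), and at dnj-20 in the 3′ UTR, 6558 bp from the 5′ end, with 73.58 (33.73 and 44.53). These signals exceeded those of the same genes' promoter summits in the pooled list, which were 36.15 at hsp-110, 63.63 at cct-7 and 27.24 at cct-5, while dnj-20 had none. The genes were picked for a conservative summit in the gene body, and none had one in the promoter window. The order of these signals thus largely follows from that choice. No tRNA, snoRNA or snRNA gene lay within 200 bp of these 5 summits.

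Other genes of protein quality control, 37 chosen by their role, were bound as well. Earlier results of these data were known when genes were chosen, so their share is not independent support. Of the 37, 8 had a conservative summit (21.6%, 9.83% to 38.2%), against 2.55% of all genes, and 33 had a pooled ranked summit (89.2%, against 65.8%), with a median percentile of 76.6. The strongest was shared by F44E5.4 and F44E5.5, adjacent genes for heat-inducible HSP70-like proteins, so the 8 genes rest on 7 summits. The signal of that peak, chrII:11759308-11759587, was 175.2 in the pooled list, 96.73 in replicate 1 and 79.66 in replicate 2, above that of every dnj-, hsp- and cct- gene. Its summit lay between the genes, 137 bp upstream of F44E5.4 and 214 bp upstream of F44E5.5. The 100 bp at this summit are shown in the same way as those of the member summits above.
F44E5.4 and F44E5.5, chrII:11759398-11759497 (+ strand): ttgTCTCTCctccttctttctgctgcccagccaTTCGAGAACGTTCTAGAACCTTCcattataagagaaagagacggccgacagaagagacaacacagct
Here the window held matches to 3 heat shock units, which none of the 7 member summit windows did, with a GAGAGA match as well. This is a single window, shown because its signal was highest, so it shows no difference in patterns between the 2 sets of genes. Words that occur elsewhere in the genome made up 77.7% of the windows of the pair, and 11.2% of the peak itself.

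The remaining related genes had lower signals. In the cytosol, hip-1, for an HSP70-interacting protein, had 95.39 in the pooled list (49.81 in replicate 1 and 38.18 in replicate 2), and bag-1, for an HSP70 exchange factor, had 90.76 (35.23 and 53.59). For the ER, enpl-1, the GRP94 homologue of HSP90, had 92.86 (40.77 and 50.93), the disulfide isomerase genes pdi-1 and pdi-2 had 87.15 (46.39 and 46.54) and 80.26 (41.28 and 38.88), and atf-6, a transcription factor of the unfolded protein response, had 80.33 (48.19 and 31.13). All of these signals lay between those of hsp-1 and dnj-19 or just under hsp-1. None of the 6 was in a replicate's own thresholded list. The gene for HSF-1 itself, hsf-1, had no pooled summit and a signal of 24.74 in replicate 1.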

How the data were processed

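Peaks are the authors' deposited lists on ce11, per the labels, called per replicate and on combined replicates. The sources used here name no aligner, peak caller or use of a control. Each list holds the authors' signal per peak and a score. Per the values of the deposited files, the score follows from the IDR. The conservative list held no peak with an IDR above 0.01, and left out 141 ranked peaks within that limit. The 2 input columns of the pooled ranked list each hold the signal of a matched peak. Which replicate each column holds is not stated, so replicate values came from the replicates' own lists (minimum overlap 1 bp). At bound member peaks that overlapped a peak in a replicate's list, the columns equalled replicates 1 and 2 in that order.

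Genes came from Ensembl release 115, sequence from RefSeq WBcel235. No peak ran past a chromosome end. RefSeq symbols told apart hsp-16.49 and hsp-16.11, whose Ensembl names repeat those of other members. Intervals are exact (Clopper-Pearson, 95%). Named were all members bound in any thresholded list, the 10 next in pooled signal, every cct- gene, members without a pooled summit, related genes bound in the conservative list, and genes that share or lie nearer a bound summit. Others were named after their values were seen. The members and lists were chosen with earlier results of these data known. Window assignment, tested on simulated data, recovered 200 of 200 planted summits and 0 of 200 placed outside. Alternatives were other windows, starts, lists, and limits on signal, small RNA genes and repeats. Scripts ran in Python 3.11.15 with scipy 1.17.1, numpy 2.4.6, matplotlib 3.10.9 and pandas 2.3.3.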

Additional observations from a re-analysis of the deposited data

How the results depend on the processing

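The 6 bound members became 3 in either replicate's list alone (range 3 to 3), and the heat shock protein count of 3 became 1 there (range 1 to 1). With 500 bp upstream that count was also 1, since the summits of hsp-60 and hsp-4 lie farther out, and 4 members in all were bound. Every other setting gave 4 to 6 bound members. The share of all genes was 4.12% with 2000 bp upstream and 2.01% with the nearest 5′ end only, both inside the members' interval. The chaperonin genes had 0 in each setting. Of all 48 counts, 43 stayed within 1.5 times the main one. These include every chaperonin count, since 0 against 0 was taken as unchanged. The median percentiles moved more. In the replicates' ranked lists they were 70.6 to 73.2 for all members, 65.9 to 67.6 for J-domain, 70.2 to 74.8 for heat shock protein and 74.9 to 77.6 for chaperonin genes. For these in the same order they were 59.0, 50.6, 57.8 and 83.6 with 500 bp upstream, 73.9, 75.9, 71.1 and 81.6 with 2000 bp, 73.5, 76.1, 72.4 and 85.6 without genes that lack a summit, and 72.5, 70, 73.4 and 90.5 without genes with over 10% repeated words, a setting chosen after seeing the data. With every transcript's 5′ end the values were 74.4 for all members, 79.4 for J-domain and 72.6 for chaperonin genes, and the other combined ranked list gave 72.6 for chaperonin genes. The causes were not tested. No paired analysis was possible because there is a single group. Read depth is unknown, the families are small, and 2 replicates bound how far any single signal can be read.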
